A study of Mus musculus with 5 samples.

Results

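The genes described here are 37 genes of glycolysis and of the cellular response to low oxygen, taken by gene symbol from a list of names. A count row was found for 36 of them, and 35 were tested among 13989 genes of the E12.5 mouse forebrain. Car9 had too few counts to be tested, and Gapdh was not analysed here. Polyadenylated RNA came from 3 EedcKO and 2 wild-type forebrains of untreated C57BL/6 embryos at E12.5, described as littermates. The product of Eed belongs to the core of Polycomb repressive complex 2, which places a repressive methyl mark on histone H3, and EedcKO is the submitters' name for its deletion. The means of deletion, the deleted part of the gene and the cells in which it was deleted are not stated in the sources used here. The labels do not say that each library is a separate embryo, so the p-values below measure the spread between these libraries, part of which may be technical.

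Glycolysis turns glucose into pyruvate in the cytosol, and lactate dehydrogenase turns pyruvate into lactate, which monocarboxylate transporters carry out of the cell. When oxygen is low, prolyl hydroxylases stop marking the hypoxia-inducible factors (HIF) for destruction, and the stabilised factors raise the transcription of glucose transporters, most glycolytic enzymes, angiogenic factors and regulators of mitochondria. Neural progenitors of the early forebrain rely strongly on glycolysis, and the tissue becomes better oxygenated as blood vessels grow into it.

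The libraries held 4820630 to 5026381 counts. Eed, the targeted gene, had 251, 233 and 247 counts in EedcKO 1, 2 and 3, against 404 (wild type 1) and 238 (library labelled wild type 2), so the count of 1 library went against its label. Every direction below is drawn with that library in the wild-type group. Xist and Y-linked counts marked EedcKO 2 and 3 as male and the other 3 libraries as female. Xist had 3127 counts in the library labelled wild type 2, against 5239 (EedcKO 1) and 5150 (wild type 1). Y-linked genes had 12 counts there, against 0 (EedcKO 1) and 2 (wild type 1). Listed markers of forebrain progenitors (8 of 8 tested) summed to 2022 to 2172 CPM (counts scaled to a common library total with TMM factors) in EedcKO, against 1864 (wild type 1) and 1821 (library labelled wild type 2). Pax6 averaged 278 CPM in EedcKO and 177 in wild type, and Lhx2 300 and 230, without overlap of the groups. Pax6 alone of the list passed the test described below (edgeR adjusted p = 0.0286). The other listed genes overlapped between the groups, and Sox2 and Hes5 were lower in EedcKO on average. Markers of surface epithelium and striated muscle stood highest in the library labelled wild type 2. The 7 surface epithelium genes summed to 9.84 to 21.1 CPM in EedcKO, against 14.1 (wild type 1) and 219 (library labelled wild type 2). The 8 striated muscle genes summed to 4.76 to 9.43 CPM in EedcKO, against 5.69 (wild type 1) and 61.2 (library labelled wild type 2). In bulk tissue, fewer cells of a type and less RNA per cell cannot be told apart.

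Of the 35 tested members, Ndrg1 alone differed between the groups, higher in EedcKO, and none was lower (edgeR's quasi-likelihood test, Benjamini-Hochberg adjusted p under 0.05 over all 13989 genes). Among all genes tested, 1.04% were higher and 2.17% lower (3.2% in all). Ndrg1 was also the only member past the threshold with RLE scaling, where 3.37% of all genes passed, and with a filter at 1 CPM in 2 libraries (2.91%). Hk1 passed beside it, as lower, with scaling by library size alone (4.83% of all genes) and without a count filter (3.36%). With DESeq2 Ndrg1 and Aldoc were higher and Hk1 lower (5.14%). No member passed with limma-voom (3.09%), without robust estimation (3%) or with limma-trend on log2(TPM + 1) (2.96%), on log2(TPM + 0.1) (2.7%) or on unfiltered TPM (0.293%). Small changes were the rule: the log2 fold change of EedcKO over wild type lay within 0.2 of zero for 22 of 35 members (62.9%), against 57.8% of all genes. The median absolute log2 fold change was 0.11 over the members and 0.16 over all genes. An unadjusted p under 0.05 was reached by 6 members (17.1%), the same share as among all genes (17.2%). The CPM of the groups did not overlap for 8 members (22.9%), against 33.8% of all genes. The 5 of these higher in EedcKO (16.4% of all genes) were Ndrg1, Aldoc, Hk2, Pdk1 and Slc16a1, and the 3 lower (17.4% of all genes) were Hk1, Eno2 and Ankrd37. More members lay on the higher than on the lower side, 26 of 35 (74.3%) against 51.6% of all genes, with a median log2 fold change of 0.08 against 0.01.

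**Figure D1:**
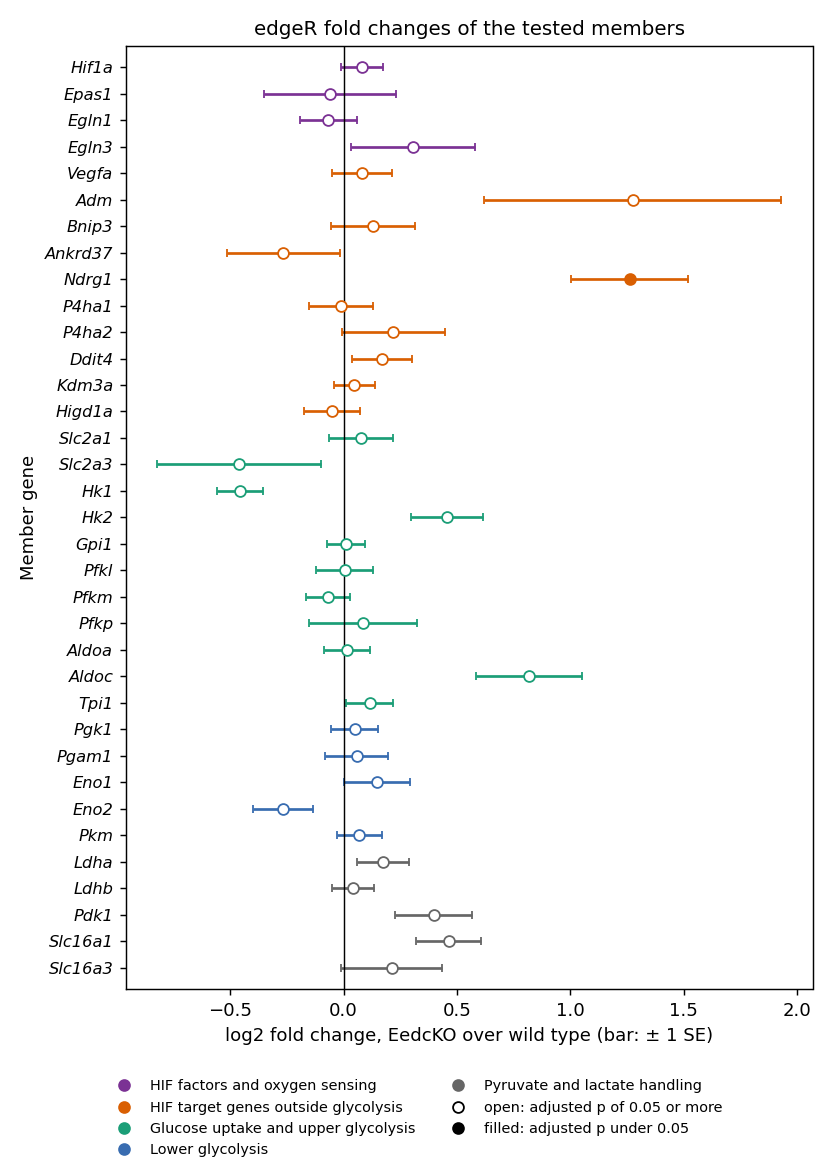
Log2 fold change of EedcKO over wild type (x axis) for the 35 tested members (y axis), coloured by role, with bars of 1 SE from edgeR. Only the Ndrg1 point, at 1.26, is filled for an adjusted p under 0.05, and most other points lie close to zero.

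The libraries themselves differed along these genes. Wild type 1 had the lowest CPM of the 5 libraries for 20 of 35 members (57.1%), whereas it was lowest for 23% of all tested genes. The library labelled wild type 2 was above wild type 1 for 24 of 35 members (68.6%, median log2 ratio 0.22), against 47.4% of all genes (median -0.02). EedcKO 2 was the highest library for 11 members and EedcKO 3 for 10. Summed over the 36 members with a row, expression was 2976, 3131 and 3192 CPM in EedcKO 1, 2 and 3, against 2847 (wild type 1) and 3045 (library labelled wild type 2), so the groups overlapped.

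**Figure D2:**
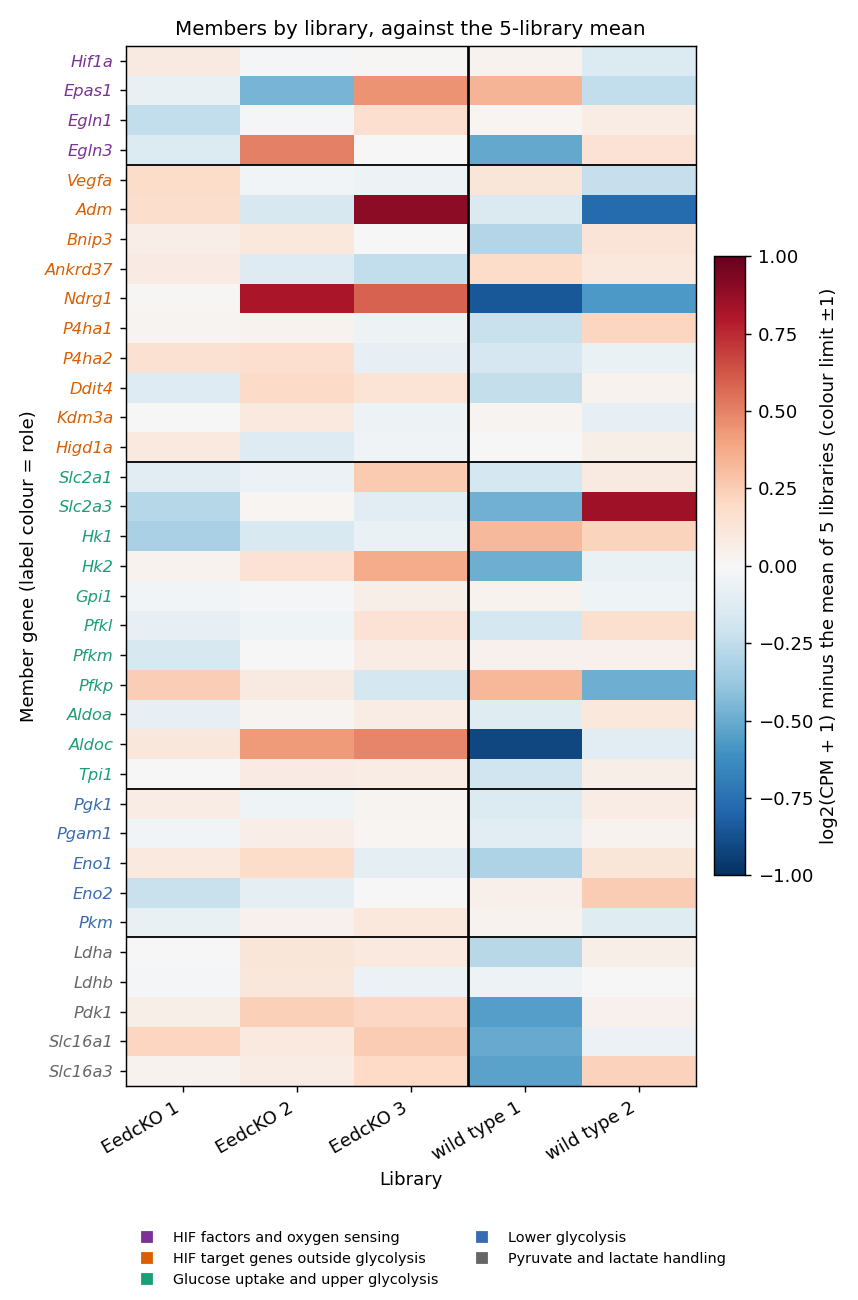
Each cell is log2(CPM + 1) of a tested member (rows, grouped and coloured by role) in a library (columns) minus the mean of the 5 libraries. Wild type 1 is blue in 20 rows as the lowest library, Slc2a3 is dark red in the library labelled wild type 2, and Ndrg1 is red in EedcKO 2 and 3 and blue in both wild-type libraries.

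Compared per length, as TPM (transcript abundance corrected for gene length and library total), Ldhb was the most abundant member in every library, at 284 to 321 TPM in EedcKO, against 283 (wild type 1) and 297 (library labelled wild type 2). Ddit4 and Pkm followed, with means over all 5 libraries of 212 and 210 TPM and overlapping ranges. Car9, Adm and P4ha2 were the least abundant, at means of 2.18, 5.79 and 7.66 TPM. The highest count of any gene in the table was 0.127% of its library, so levels of the most abundant genes may be compressed. Processed pseudogenes are known for several glycolytic genes, Pgk1, Pgam1, Eno1, Aldoa and Ldha among them, and how reads shared with such copies were counted is not stated in the sources used here.

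The HIF subunits and their oxygen sensors did not pass the test. Hif1a, the broadly expressed oxygen-regulated subunit, had 222, 208 and 211 CPM in EedcKO 1, 2 and 3, against 214 (wild type 1) and 190 (library labelled wild type 2), at a log2 difference of 0.08 (SE 0.09, edgeR adjusted p = 0.739). Epas1, which encodes the HIF subunit best known from blood vessels, had 31.9, 24.2 and 46.3 CPM, against 43.0 (wild type 1) and 28.3 (library labelled wild type 2), at a log2 difference of -0.06 (SE 0.29). Its spread was wide within both groups, which overlapped. Endothelial markers (10 genes) ran alongside, summing to 294, 264 and 362 CPM in EedcKO 1, 2 and 3, against 335 (wild type 1) and 254 (library labelled wild type 2), and their part in the Epas1 values was not tested. Egln1, the main HIF prolyl hydroxylase, had 109, 128 and 145 CPM in EedcKO, against 131 (wild type 1) and 136 (library labelled wild type 2). Egln3, a prolyl hydroxylase that HIF itself induces, had 19.4, 30.8 and 21.3 CPM, against 14.8 (wild type 1) and 23.8 (library labelled wild type 2), at a log2 difference of 0.31 (SE 0.27, edgeR adjusted p = 0.654). All 4 genes had overlapping groups.

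Among the HIF targets outside glycolysis, 1 of 10 tested rose and none fell, where 1.04% of all genes rose and 2.17% fell. Ndrg1, a stress- and hypoxia-induced gene whose loss in humans causes a demyelinating neuropathy, had 128, 230 and 197 counts in EedcKO 1, 2 and 3, against 68 (wild type 1) and 86 (library labelled wild type 2). As CPM it averaged 38.2 ± 10.6 in EedcKO (SD, n = 3) and 15.9 ± 2.23 in wild type (SD, n = 2). Every EedcKO library was above both wild-type libraries, and EedcKO 1 was the lowest EedcKO library at 26.7 CPM. EedcKO 1 was also the only female EedcKO library, and both wild-type libraries were female. The log2 fold change was 1.26 (SE 0.26, edgeR adjusted p = 0.0472), a 2.4-fold difference close to the threshold. The adjusted p ranged from 0.00132 with DESeq2 to 0.382 with limma-trend on TPM without a filter. The log2 fold change ranged from 0.75 with embryo sex as a covariate to 1.46 without EedcKO 1. As no wild type was male, the fit with sex compares EedcKO 1 alone with wild type, and the part of sex in EedcKO 2 and 3 cannot be told apart. The call was lost when wild type 1 (adjusted p = 0.0837), EedcKO 2 (0.124) or EedcKO 3 (0.207) was left out in edgeR, and kept without the library labelled wild type 2 (1.42, adjusted p = 0.0487). Ndrg1 (chromosome 15, 66929318 to 66969640, minus strand, mm10) shares 6.35% of its exon bases with the antisense gene Gm17035 and 2.08% with Gm2895 in GENCODE. The use of strand in counting is not stated in the sources used here. Ndrg1 is also a gene of myelinating cells, and the 6 neural crest and Schwann markers summed to 19.4, 14.3 and 16.4 CPM in EedcKO 1, 2 and 3, against 44.7 (wild type 1) and 32.3 (library labelled wild type 2). Of these 6, 3 had enough counts to be tested. Sox10, the defining factor of that lineage, had 5, 1 and 3 counts in EedcKO, against 42 (wild type 1) and 28 (library labelled wild type 2). Its EedcKO counts were near the limit of detection. It passed the count filter only through the wild-type libraries, so no test result is given for it. The part of these cells in the Ndrg1 values was not tested.

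The other HIF targets had log2 fold changes from -0.27 to 1.28 and no adjusted p under 0.381. Vegfa, the main angiogenic growth factor, had 111, 95.8 and 94.3 CPM in EedcKO 1, 2 and 3, against 107 (wild type 1) and 83.4 (library labelled wild type 2), at a log2 difference of 0.08 (SE 0.13). Adm, which encodes the vasodilator peptide adrenomedullin, had only 10, 7 and 20 counts in EedcKO, against 7 (wild type 1) and 3 (library labelled wild type 2). Its log2 difference of 1.28 (SE 0.66, edgeR adjusted p = 0.381) was as large as that of Ndrg1 with a larger error, and its groups overlapped. Ankrd37, a HIF target with ankyrin repeats, had 8.77, 7.45 and 6.77 CPM in EedcKO, against 9.49 (wild type 1) and 8.95 (library labelled wild type 2), and the groups did not overlap (log2 fold change -0.27, SE 0.25, edgeR adjusted p = 0.674). Part of its exons, 22.7%, overlaps Lrp2bp on the opposite strand. The mitophagy receptor gene Bnip3 had 19.4, 20.1 and 18.5 CPM in EedcKO, against 15.0 (wild type 1) and 20.3 (library labelled wild type 2). Ddit4, an inhibitor of mTORC1 signalling, had 70.2, 87.5 and 84.5 CPM in EedcKO, against 64.9 (wild type 1) and 78.5 (library labelled wild type 2), at a log2 difference of 0.17. The collagen prolyl hydroxylase subunits P4ha1 and P4ha2 (-0.01 and 0.22), the histone demethylase Kdm3a (0.05) and the mitochondrial protein gene Higd1a (-0.05) had overlapping groups and log2 fold changes within their errors. Car9, a carbonic anhydrase strongly induced by hypoxia, had 7, 3 and 1 counts in EedcKO, against 7 (wild type 1) and 7 (library labelled wild type 2). The 95% Poisson intervals ran from 0.0253 to 5.57 counts for EedcKO 3 and from 2.81 to 14.4 counts for 7 counts, so these values were near the limit of detection at this depth.

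In glucose uptake and the steps to triose phosphate, none of 11 tested genes passed. The groups did not overlap for 3 of these 11 genes, where they did not overlap for 33.8% of all genes. Hk1 encodes the hexokinase typical of brain. Its CPM was 89.4, 101 and 107 in EedcKO 1, 2 and 3, against 141 (wild type 1) and 131 (library labelled wild type 2). Every EedcKO library was thus below both wild-type libraries, with means of 99.1 ± 8.97 in EedcKO (SD, n = 3) and 136 ± 6.85 in wild type (SD, n = 2), yet the difference of -0.46 on the log2 scale (SE 0.10) just missed the threshold (edgeR adjusted p = 0.0595). It passed with DESeq2 (adjusted p = 0.0297), without TMM (0.0312), without a count filter (0.0356) and without the library labelled wild type 2 (0.0475), and its adjusted p over all alternatives reached 0.342. Hk2, the hexokinase isozyme typical of insulin-responsive and growing tissue, ran the other way, with 64.7, 70.1 and 82.0 CPM in EedcKO, against 44.9 (wild type 1) and 60.4 (library labelled wild type 2). The groups did not overlap, and the log2 fold change was 0.46 (SE 0.16, edgeR adjusted p = 0.185; alternatives 0.0408 to 0.654). It was 0.69 without the library labelled wild type 2 (edgeR adjusted p = 0.0408) and 0.24 without wild type 1 (edgeR adjusted p = 0.389). Hk1 lies on chromosome 10 (62268855 to 62379908, minus strand, mm10) and Hk2 on chromosome 6 (82725025 to 82774454, minus strand).

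Aldoc, the aldolase isozyme of brain and a marker of glia later in life, had 73.5, 91.4 and 96.0 CPM in EedcKO 1, 2 and 3, against 35.6 (wild type 1) and 62.8 (library labelled wild type 2). All EedcKO libraries were higher, and the wild-type libraries differed 1.76-fold from each other. The log2 fold change was 0.82 (SE 0.23, edgeR adjusted p = 0.123). It was 1.29 without the library labelled wild type 2 (adjusted p = 0.00485) and 0.45 without wild type 1, and it passed with DESeq2 (adjusted p = 0.0234); over all alternatives the adjusted p reached 0.544. Its paralog Aldoa, the aldolase of most tissues, had a log2 fold change of 0.01 (SE 0.10) with overlapping groups.

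The glucose transporter genes overlapped between the groups. Slc2a1, the glucose transporter of the blood-brain barrier and of most proliferating cells, had 106, 110 and 139 CPM in EedcKO 1, 2 and 3, against 102 (wild type 1) and 123 (library labelled wild type 2), at a log2 difference of 0.08 (SE 0.14). Slc2a3, the neuronal glucose transporter, had 38.2, 47.6 and 43.5 CPM in EedcKO, against 33.3 (wild type 1) and 85.2 (library labelled wild type 2). The EedcKO libraries lay close together between wild-type libraries that differed 2.56-fold. Its log2 difference of -0.46 (SE 0.36, edgeR adjusted p = 0.604) became -0.999 without wild type 1 (adjusted p = 0.00837) and 0.38 without the library labelled wild type 2 (adjusted p = 0.266), so its direction rested on 1 library. The same library was highest for the surface epithelium, striated muscle, erythroid and choroid plexus lists. The erythroid list summed to 253 to 435 CPM in EedcKO, against 262 (wild type 1) and 646 (library labelled wild type 2), and the choroid plexus list to 22.6 to 150 CPM in EedcKO, against 121 (wild type 1) and 413 (library labelled wild type 2). The part of those tissues in the Slc2a3 value was not tested.

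The remaining genes of this stretch showed little difference. Gpi1, glucose phosphate isomerase, had log2 fold change 0.01, and the phosphofructokinase subunits Pfkl, Pfkm and Pfkp had 0.00, -0.07 and 0.09. Triose phosphate isomerase, Tpi1, had 0.11 (SE 0.10). Pfkp, the platelet-type subunit, had 134, 120 and 99.6 CPM in EedcKO 1, 2 and 3, against 142 (wild type 1) and 79.9 (library labelled wild type 2). Its wild-type libraries enclosed all EedcKO values, and its log2 fold change was 0.54 without wild type 1 and -0.26 without the library labelled wild type 2.

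**Figure D3:**
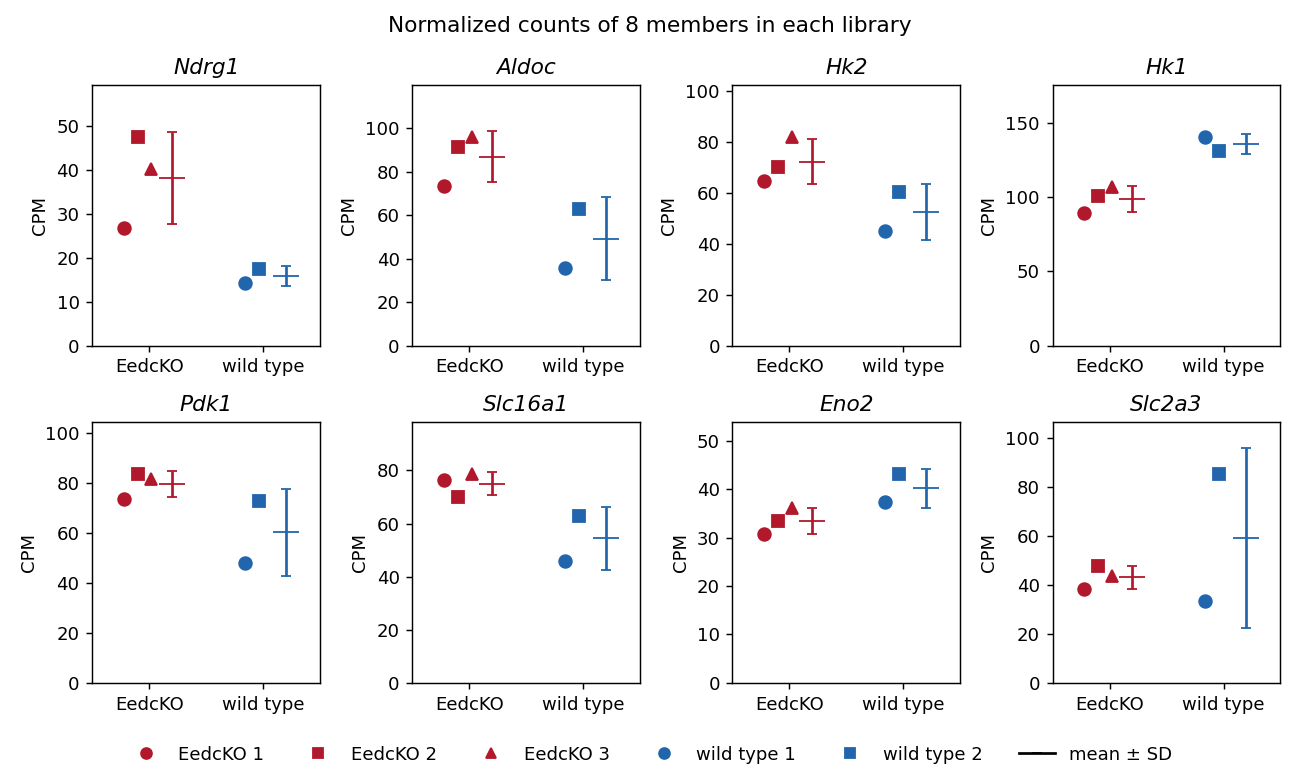
CPM (y axis, from 0) of 8 members in each library, with mean ± SD (n = 3 EedcKO, n = 2 wild type) beside the points. The groups are apart for all but Slc2a3, whose wild-type libraries lie at 33.3 and 85.2 CPM on either side of the EedcKO values.

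Promoters are shown for 4 of the members whose groups did not overlap and for Ldha, whose groups overlapped and which held the most matches to the core of the hypoxia response element together with Bnip3. These members were picked with their values known. Each sequence is the 250 bases before the first start listed for the gene in RefSeq (GRCm38.p6), 5′ to 3′ on the gene's strand, with capitals for ACGTG or GCGTG on either strand (CACGT or CACGC when read on the gene's strand). In CACGTG a match on each strand overlaps by all but 1 base, and both were counted.
Hk1 (chr10:62379909-62380158, minus strand): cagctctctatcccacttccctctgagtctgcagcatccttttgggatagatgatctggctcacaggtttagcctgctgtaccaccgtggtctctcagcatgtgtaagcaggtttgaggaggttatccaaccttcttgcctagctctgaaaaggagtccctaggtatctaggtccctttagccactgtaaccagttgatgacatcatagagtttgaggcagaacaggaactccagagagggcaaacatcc
Hk2 (chr6:82774455-82774704, minus strand): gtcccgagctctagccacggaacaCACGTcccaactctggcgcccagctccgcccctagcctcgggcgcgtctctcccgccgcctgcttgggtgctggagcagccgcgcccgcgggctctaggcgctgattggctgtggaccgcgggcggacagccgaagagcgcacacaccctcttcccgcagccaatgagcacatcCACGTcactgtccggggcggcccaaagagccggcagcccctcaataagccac
Aldoc (chr11:78322823-78323072, plus strand): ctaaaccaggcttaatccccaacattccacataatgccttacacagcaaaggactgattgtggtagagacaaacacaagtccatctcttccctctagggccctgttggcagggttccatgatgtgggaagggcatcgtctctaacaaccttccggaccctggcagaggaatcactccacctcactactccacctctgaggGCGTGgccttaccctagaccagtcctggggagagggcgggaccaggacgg
Slc16a1 (chr3:104638414-104638663, plus strand): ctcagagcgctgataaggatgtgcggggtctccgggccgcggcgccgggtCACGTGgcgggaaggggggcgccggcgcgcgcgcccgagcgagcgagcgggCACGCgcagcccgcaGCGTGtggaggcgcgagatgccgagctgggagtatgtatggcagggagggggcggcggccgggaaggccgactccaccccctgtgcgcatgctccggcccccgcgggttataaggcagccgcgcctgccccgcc
Ldha (chr7:46845554-46845803, plus strand): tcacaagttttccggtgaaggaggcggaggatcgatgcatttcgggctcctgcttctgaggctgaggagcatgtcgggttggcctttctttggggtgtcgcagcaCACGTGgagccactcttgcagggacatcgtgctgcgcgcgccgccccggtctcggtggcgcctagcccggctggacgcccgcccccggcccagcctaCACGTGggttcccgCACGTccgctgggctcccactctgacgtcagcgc
These windows held 0 matches for Hk1, 2 for Hk2, 1 for Aldoc, 4 for Slc16a1 and 5 for Ldha. Among the members without group overlap that are not shown, the windows of Ankrd37 and Eno2 (both lower) held 4 and 0 matches. That of Pdk1 (higher) held 1, and no promoter was listed for Ndrg1. The Hk2 matches began 226 and 52 bases before the RefSeq start and the Aldoc match 50 bases before its own. In GENCODE, Aldoc starts at 78322968 and Ldha at 46841475. Part of the Aldoc window, with its match, and the whole Ldha window thus lie inside the gene as annotated there. Of 32 tested members with a listed promoter, 25 (78.1%) held at least 1 match, as did 56.6% of 11003 tested genes and 38.6% of all 27025 genes listed. A match is a description of letters only. With each CACGTG taken as 1 place, Slc16a1 and Ldha each held matches at 3 places.

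None of the 5 tested genes of lower glycolysis passed the test. Pgk1, phosphoglycerate kinase, had 70.8, 65.2 and 68.7 CPM in EedcKO 1, 2 and 3, against 60.9 (wild type 1) and 71.0 (library labelled wild type 2), at a log2 difference of 0.05 (SE 0.10). Pgk1 is on the X chromosome, and the male EedcKO 2 and 3 lay within the range of the 3 female libraries. Pgam1, phosphoglycerate mutase, had a log2 fold change of 0.06 (SE 0.14), and Pkm, pyruvate kinase, of 0.07 (SE 0.10). Eno1, the enolase of most tissues, had 89.4, 94.8 and 78.5 CPM in EedcKO, against 67.2 (wild type 1) and 90.7 (library labelled wild type 2), at a log2 difference of 0.15 (SE 0.15). Eno2, the enolase of neurons, had 30.7, 33.5 and 36.1 CPM in EedcKO, against 37.3 (wild type 1) and 43.1 (library labelled wild type 2). Its groups did not overlap, and the log2 difference was -0.27 (SE 0.13, edgeR adjusted p = 0.36). The 8 listed neuron markers summed to 2385, 2411 and 2220 CPM in EedcKO 1, 2 and 3, against 2705 (wild type 1) and 2029 (library labelled wild type 2). Their sums overlapped between the groups, and the 8 genes went both ways. Neurod6 and Neurod2, factors of cortical excitatory neurons, rose by 1.22 and 1.28 on the log2 scale (edgeR adjusted p = 0.00598 and 0.0101), while Slc32a1, the vesicular GABA transporter, fell by 1.07 (edgeR adjusted p = 0.021). The general neuronal genes Stmn2 and Tubb3 had log2 differences of -0.19 and -0.09 (edgeR adjusted p = 0.31 and 0.671). Like Eno2, each was lower in every EedcKO library than in both wild-type libraries. Dcx and Map2, general neuronal genes of the same list, had log2 differences of -0.04 and -0.19. Their groups overlapped (edgeR adjusted p = 0.946 and 0.628). The part of neuron content in the Eno2 values was not tested.

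In the fit of all 5 libraries, the 5 genes that handle pyruvate and lactate had log2 fold changes above zero, from 0.04 to 0.46. None passed the test. With 1 library left out at a time, the lowest values for Ldha, Ldhb and Slc16a3 were -0.0029, -0.0085 and -0.15. Slc16a1, the widely expressed monocarboxylate transporter, had 76.4, 70.1 and 78.5 CPM in EedcKO 1, 2 and 3, against 46.0 (wild type 1) and 62.8 (library labelled wild type 2). The EedcKO libraries were all higher (log2 fold change 0.46, SE 0.14, edgeR adjusted p = 0.142). Pdk1, the kinase that shuts off pyruvate dehydrogenase, had 73.7, 83.6 and 81.8 CPM in EedcKO, against 48.1 (wild type 1) and 72.8 (library labelled wild type 2). The groups did not overlap, but EedcKO 1 and the library labelled wild type 2 lay closer together than the SD of either group (log2 fold change 0.40, SE 0.17, edgeR adjusted p = 0.287). Without the library labelled wild type 2 the log2 fold changes of Slc16a1 and Pdk1 were 0.71 and 0.74 (edgeR adjusted p = 0.0174 and 0.0148), and without wild type 1 they were 0.24 and 0.11. Over all alternatives the adjusted p reached 0.511 for Slc16a1 and 0.712 for Pdk1. Ldha, the lactate dehydrogenase subunit that favours lactate formation, had 137, 148 and 145 CPM in EedcKO, against 112 (wild type 1) and 142 (library labelled wild type 2), at a log2 difference of 0.17 (SE 0.12, edgeR adjusted p = 0.52). Ldhb, the heart-type subunit, had 0.04 (SE 0.09). Slc16a3, the lactate exporter of highly glycolytic cells, had 30.3, 31.0 and 34.0 CPM in EedcKO, against 20.0 (wild type 1) and 34.8 (library labelled wild type 2). Like Slc2a3, it had a wild-type library on each side of the EedcKO values.

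Several members are paralogs that serve the same step, so the share of 1 of them in the summed TPM of the pair was compared over libraries for 7 pairs. Hk2 made up 50.9%, 49.8% and 52.3% of hexokinase 1 and 2 transcripts in EedcKO 1, 2 and 3, against 31.3% (wild type 1) and 39.7% (library labelled wild type 2). The means were 51.0% ± 1.23 (SD, n = 3) in EedcKO and 35.5% ± 5.93 (SD, n = 2) in wild type. Aldoc made up 39.6%, 43.0% and 43.4% of the Aldoa and Aldoc sum in EedcKO, against 24.6% (wild type 1) and 33.0% (library labelled wild type 2). For Eno2 the share of the enolase pair was 28.2%, 28.8% and 34.4% in EedcKO, against 38.8% (wild type 1) and 35.2% (library labelled wild type 2). Groups did not overlap in these 3 of the 7 pairs. They did not overlap for Hk1, Hk2, Aldoc and Eno2 as single genes either, so these shares partly restate those values. By CPM, the groups did not overlap for 33.8% of all single genes tested. With 10 possible assignments of 5 libraries, an exact permutation test whose two-sided p is 2 times the smaller one-sided p cannot go below p = 0.2, which all 3 reached (adjusted p = 0.467 over 7 pairs). The Ldhb share was 59.7%, 59.8% and 57.3% in EedcKO, against 63.6% (wild type 1) and 58.9% (library labelled wild type 2). It overlapped between the groups, as did the shares of Slc2a3, Slc16a3 and P4ha2.

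**Figure D4:**
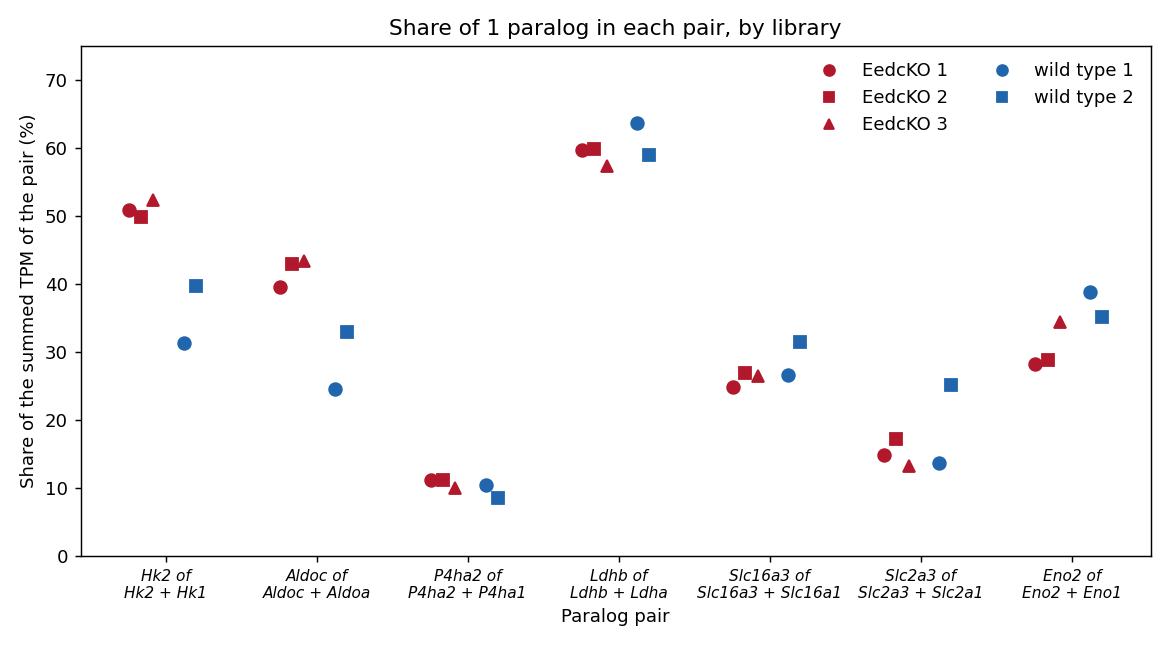
Share of 1 paralog in the summed TPM of its pair (y axis, percent) for 7 pairs (x axis), with 1 point per library. The EedcKO points of Hk2 (49.8% to 52.3%) and Aldoc (39.6% to 43.4%) lie above both wild-type points, and those of Eno2 lie below.

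How many members passed depended on which wild-type library was used. In the fit lacking the library labelled wild type 2, 5 members rose (Ndrg1, Aldoc, Hk2, Pdk1 and Slc16a1) and Hk1 fell, of 35 tested, where 2.07% of 14232 genes rose and 4.12% fell (6.2% in all). Without wild type 1, no member rose and Slc2a3 fell, where 3.01% of 14409 genes rose and 4.02% fell (7.02% in all). A lone wild-type library is assumed there to vary like the EedcKO libraries. Without EedcKO 1 Ndrg1 alone passed (log2 fold change 1.46, edgeR adjusted p = 0.0214), where 1.89% of all genes did, and without EedcKO 2 or EedcKO 3 no member did, where 0.606% and 0% of all genes passed. Without EedcKO 3, 1887 genes had an unadjusted edgeR p under 0.05.

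**Figure D5:**
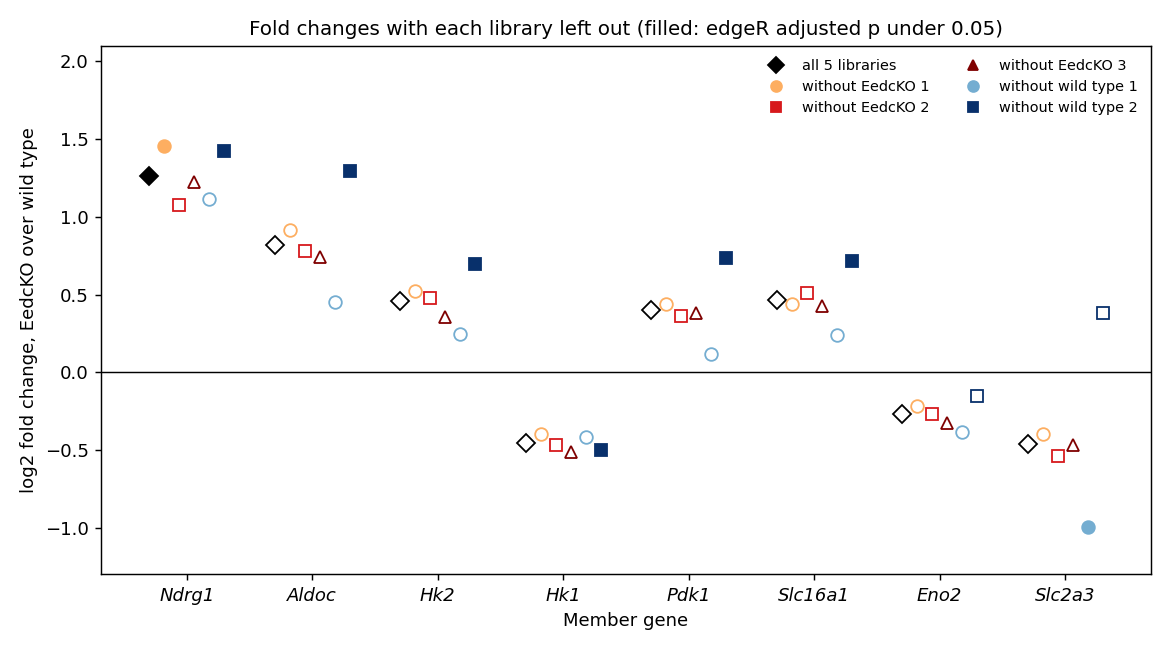
Log2 fold change of EedcKO over wild type (y axis) for 8 members (x axis) in the fit of all 5 libraries and in fits that leave out 1 library, filled where the edgeR adjusted p is under 0.05. Leaving out the library labelled wild type 2 raises Aldoc, Hk2, Pdk1 and Slc16a1 and turns Slc2a3 from -0.46 to 0.38.

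The same comparison was made for 7 lists of 100 further genes of these pathways, of which 92 were tested. Hif3a rose and no gene fell, where 1.04% of all genes rose and 2.17% fell. Hif3a encodes a further HIF alpha subunit, some forms of which hold back the other subunits and which HIF itself induces. It had 53.7, 64.1 and 79.3 CPM in EedcKO 1, 2 and 3, against 26.4 (wild type 1) and 33.3 (library labelled wild type 2), at a log2 difference of 1.14 (SE 0.19, edgeR adjusted p = 0.0276; alternatives 7.4e-05 to 0.31). All EedcKO libraries were higher, and the call was lost without EedcKO 2 (edgeR adjusted p = 0.085) or EedcKO 3 (0.125). It was also lost with the replicate block (edgeR adjusted p = 0.0575) and with limma-trend on unfiltered TPM (adjusted p = 0.31). As for Ndrg1, the lowest EedcKO library was EedcKO 1, the only female one. With embryo sex as a covariate, which compares EedcKO 1 alone with wild type, the log2 fold change was 0.84. The part of sex in EedcKO 2 and 3 cannot be told apart. Among the other 8 HIF regulators tested, the HIF partner Arnt had 0.18 (SE 0.08, edgeR adjusted p = 0.331). Arnt2, its form in neurons, had -0.22 (SE 0.12, edgeR adjusted p = 0.425). Of 26 further hypoxia-induced genes none passed, and the smallest p belonged to Ppp1r3c, a glycogen-targeting phosphatase subunit (0.75, SE 0.26, edgeR adjusted p = 0.188). Of 9 tested further glycolytic enzymes none passed.

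The sugar and monocarboxylate transporters (12 tested) had no call, with the smallest p for Slc2a12 (log2 fold change -0.69, SE 0.23, edgeR adjusted p = 0.169). There was none among 12 genes of pyruvate dehydrogenase and the pyruvate carriers (smallest p Pdha1, 0.12, edgeR adjusted p = 0.516) or 7 of the pentose phosphate pathway (Rpia, 0.15, edgeR adjusted p = 0.519). None of 17 genes of the citric acid cycle passed, with values from -0.02 to 0.32, and the smallest p was that of Suclg2 (0.32, SE 0.19, edgeR adjusted p = 0.469). The median log2 fold change of these lists lay between -0.05 and 0.10, against 0.01 over all genes.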

How the data were processed

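RNA of 5 forebrain libraries was aligned to mm10, and HISAT2 2.2.0 is named, per the submitters' processing notes; the counting tool, strand setting and annotation are not stated in the sources used here. Whole-number counts per gene (56196 rows) and TPM (24926 rows) are used as deposited by the authors. Rows without a symbol (28277, 50.3% of rows, 2.01% to 2.16% of counts) were left out, and 0 columns belonged to other samples. For 407 symbols found on several rows, a row kept the symbol only if it held 99% or more of the symbol's counts. Samples were grouped by title.

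Counts were tested in R 4.3.3 with edgeR 4.0.16 (filterByExpr, TMM, robust glmQLFit, glmQLFTest on the group), with Benjamini-Hochberg adjustment over 13989 genes at 0.05; SE is the log2 fold change over the square root of F. Depth set the precision: 3 counts equal 0.61 to 0.632 CPM. Poisson intervals (95%) reflect counting error alone. DESeq2 1.42.0, limma 3.58.1 (voom, and limma-trend on log2-transformed TPM, pseudocount 1 or 0.1) and the settings in the closing section were alternatives. Coordinates are from GENCODE (mm10), 1-based, and promoters from RefSeq. The members, lists and tests were chosen with earlier results of these data known. All members are accounted for; of other pathway genes, those past the threshold (at most 4 per list) or else the one with the smallest p were named, and Arnt and Arnt2 were added after their values were seen. The gene with the smallest p among the further glycolytic enzymes is not reported here.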

Additional observations from a re-analysis of the deposited data

How the results depend on the processing

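Counts of calls moved with the tool and the libraries. Members higher numbered 1 in edgeR, 2 with DESeq2 and 0 with limma-voom, robust estimation off, limma-trend on TPM (pseudocount 1 or 0.1, and no filter), the replicate block and embryo sex as a covariate. Members lower numbered 0, and 1 (Hk1) with DESeq2, library size alone and no count filter. Further pathway genes called numbered 1, 2 with library size alone, DESeq2, limma-voom, no count filter and limma-trend on log2(TPM + 1), and 0 with limma-trend without a filter, the block and sex. All genes higher and lower numbered 145 and 303, against 230 and 445 with library size alone, 263 and 414 with DESeq2, 228 and 420 with no count filter, and 16 and 57 with limma-trend without a filter. With the replicate block, and with sex, 0 and 0 passed in edgeR, where 2169 and 1611 genes had an unadjusted p under 0.05. The numbers do not pair the libraries by their labels, and same-numbered libraries' deviations correlated at -0.01 and 0.13. As no wild type was male, the fit with sex compares EedcKO 1 alone with wild type.

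With each library left out, members higher ran from 0 to 5, members lower from 0 to 1, pathway genes from 0 to 6, and all genes from 0 to 433 higher and 0 to 587 lower. The difference in the Ldhb share ran from -4.71 to 0.013 percentage points and in the Slc2a3 share from -10.1 to 1.44. The other 5 shares kept their direction, also as shares of CPM. Of 420 values of single members under the other settings 20 turned sign, none of a member past the threshold. These log2 fold changes were, for P4ha1, 0.0037 with limma-voom, 0.015 and 0.016 with limma-trend (pseudocounts 1 and 0.1, and 0.015 without a filter), 0.029 with the block and 0.011 with sex. With library size alone they were -0.0010 for Gpi1, -0.013 for Pfkl and -0.0023 for Aldoa. With the block they were -0.048 for Slc2a1, -0.018 for Gpi1, -0.058 for Pfkl and -0.017 for Aldoa. With sex they were -0.032 for Ddit4, 0.069 for Higd1a, -0.081 for Slc2a1, -0.023 for Gpi1, -0.090 for Pfkl, -0.077 for Aldoa and -0.032 for Pkm. Ranges that crossed zero with a library left out were -0.34 to 0.26 for Epas1, -0.17 to 0.026 for Egln1, -0.012 to 0.70 for Egln3, -0.080 to 0.25 for Vegfa, -0.090 to 0.37 for Bnip3, -0.23 to 0.24 for P4ha1, -0.0020 to 0.089 for Kdm3a, -0.068 to 0.22 for Slc2a1 and -0.999 to 0.38 for Slc2a3. They were -0.022 to 0.033 for Gpi1, -0.17 to 0.19 for Pfkl, -0.26 to 0.54 for Pfkp, -0.11 to 0.14 for Aldoa, -0.025 to 0.26 for Tpi1, -0.073 to 0.17 for Pgk1, -0.028 to 0.14 for Pgam1, -0.067 to 0.39 for Eno1, -0.00044 to 0.14 for Pkm, -0.0029 to 0.36 for Ldha, -0.0085 to 0.078 for Ldhb and -0.15 to 0.67 for Slc16a3. The cause was not tested. Depth limits Car9 and Adm most.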
